A study of Rattus norvegicus with 15 samples.

Results

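The genes described here are 3 transcripts of vessel inflammation and cytokine signalling in rat brain: Icam1 (ENSRNOG00000020679) and Vcam1 (ENSRNOG00000014333), which encode adhesion molecules of the vessel wall, and Stat3 (ENSRNOG00000019742), a cytokine-driven transcription factor. They were selected by Ensembl identifier from a table of 15094 genes. A further gene of the selection, Socs3 (ENSRNOG00000002946), the feedback inhibitor in this pathway, was not analysed here, so the values cover the adhesion genes and STAT3 without its feedback gene. Symbols are those that came with the identifiers in the selection and could not be checked against an annotation, because the reference gene table lists 0 Ensembl identifiers.

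RNA was sequenced from the brain of Sprague-Dawley rats 72 h after modelling. Sham rats had a sham operation, ICH rats had intracerebral hemorrhage (bleeding into the brain), and ICH_MA rats had intracerebral hemorrhage followed by mithramycin A, a DNA-binding drug known to block the binding of Sp1 to GC-rich DNA. The tissue is labelled brain, with basal ganglia cells as the cell type. The sources used here do not give how the hemorrhage was made, the drug's dose and route, or the rats' age and sex. Of 15 labelled samples, 11 were analysed: all 5 of Sham, replicates 1, 2 and 5 of ICH (n = 3), and replicates 1, 2 and 3 of ICH_MA (n = 3).

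Cytokine-activated endothelium raises ICAM-1 and VCAM-1 on its surface. ICAM-1 is bound by the integrins of the beta-2 family on neutrophils, monocytes and lymphocytes, and VCAM-1 by integrin alpha-4 on monocytes and lymphocytes, and both help these cells to stop and cross the vessel wall. In brain, microglia and astrocytes can also make ICAM-1. STAT3 is phosphorylated by JAK kinases when cytokines of the interleukin-6 family bind their receptors, enters the nucleus, and drives genes of the acute response, its own gene included. Transcription of Icam1 and Vcam1 is known to respond to NF-kB, and that of Icam1 to STAT factors too.

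Library totals ran from 56393423 to 67733469 counts. Members held 144 to 8458 counts per library, so that counting error alone gave a coefficient of variation (CV, SD over mean) of 1.09% to 8.33%. Levels are given as CPM, each count divided by the TMM-scaled library total on a common scale, and they compare libraries, not genes. Sham replicate 1 differed from the other Sham libraries by a chi-square per degree of freedom of 57.9 to 88.2, against 17.1 to 35 among the others. By this measure all ICH libraries lay far from one another. It was 60.4 between ICH replicates 1 and 2, and 82.6 and 92.2 between replicate 5 and replicates 1 and 2. ICH replicate 5 held the lowest level of the ICH group for Icam1 and Stat3, and without it the number of genes called between ICH_MA and ICH over the whole table went from 0 to 1137. Marker lists for vessel, glial, immune and neuronal cells could not be applied without gene names, so the tissue label was not checked and the part of cell composition in the results was not tested. In bulk tissue, more cells of a type and more RNA per cell cannot be told apart.

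Icam1 had the largest change of the 3 genes after hemorrhage. The Sham libraries held 2.97, 2.26, 4.55, 2.90 and 4.39 CPM in replicates 1 to 5. The ICH libraries held 13.7, 15.6 and 7.01 CPM in replicates 1, 2 and 5. Every ICH library lay above every Sham library, with replicate 5 well below the other two. Mean levels were 3.42 ± 1.004 CPM for the Sham group (SD, n = 5) against 12.1 ± 4.52 CPM for the ICH group (SD, n = 3). Icam1 thus rose 3.54-fold, a log2 difference of 1.83 (SE 0.28, adjusted p = 0.00134 by edgeR's quasi-likelihood F test). A larger log2 fold change was found in 341 of the 14963 genes tested (2.28%). The rise passed the threshold, an adjusted p under 0.05, in all 20 alternative analyses, among them each library left out in turn.

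Stat3 rose with it at a smaller fold. The Sham libraries held 57.4, 64.9, 66.6, 59.1 and 61.1 CPM in replicates 1 to 5. The ICH libraries held 114, 140.5 and 70.6 CPM in replicates 1, 2 and 5. Replicate 5 lay only just above the highest Sham library, and the other ICH libraries lay far above it. Mean levels were 61.8 ± 3.88 CPM for the Sham group (SD, n = 5) against 108.3 ± 35.3 CPM for the ICH group (SD, n = 3). The rise was 1.75-fold, or 0.81 on the log2 scale (SE 0.16, adjusted p = 0.00452 by edgeR). This call too was kept in all 20 alternatives. Leaving out ICH replicate 2 gave a log2 difference of 0.58, and leaving out ICH replicate 5 gave 1.04.

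Vcam1 rose least, and its groups overlapped. The Sham libraries held 35.3, 35.5, 38.8, 36.8 and 34.0 CPM in replicates 1 to 5. The ICH libraries held 37.3, 47.4 and 45.1 CPM in replicates 1, 2 and 5. ICH replicate 1 lay within the range of Sham, whereas the other ICH libraries lay above it. Mean levels were 36.1 ± 1.82 CPM for the Sham group (SD, n = 5) against 43.3 ± 5.31 CPM for the ICH group (SD, n = 3). The rise was 1.20-fold, or 0.26 on the log2 scale (SE 0.08, adjusted p = 0.0328 by edgeR). The call was lost without ICH replicate 2 (edgeR adjusted p = 0.15), without ICH replicate 5 (adjusted p = 0.0824), and without Sham replicates 1, 2, 4 and 5 (adjusted p = 0.0743, 0.0639, 0.073 and 0.0905). With only Sham and ICH in the model the adjusted p was 0.0543.

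In ICH against Sham, 3 of 3 members were thus called higher, where 15% of all genes tested were called higher. The groups did not overlap for Icam1 and Stat3, as was so in the same direction for 15.2% of all genes tested. The members were chosen with earlier results of these data known, so these counts do not test the selection.

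**Figure D1:**
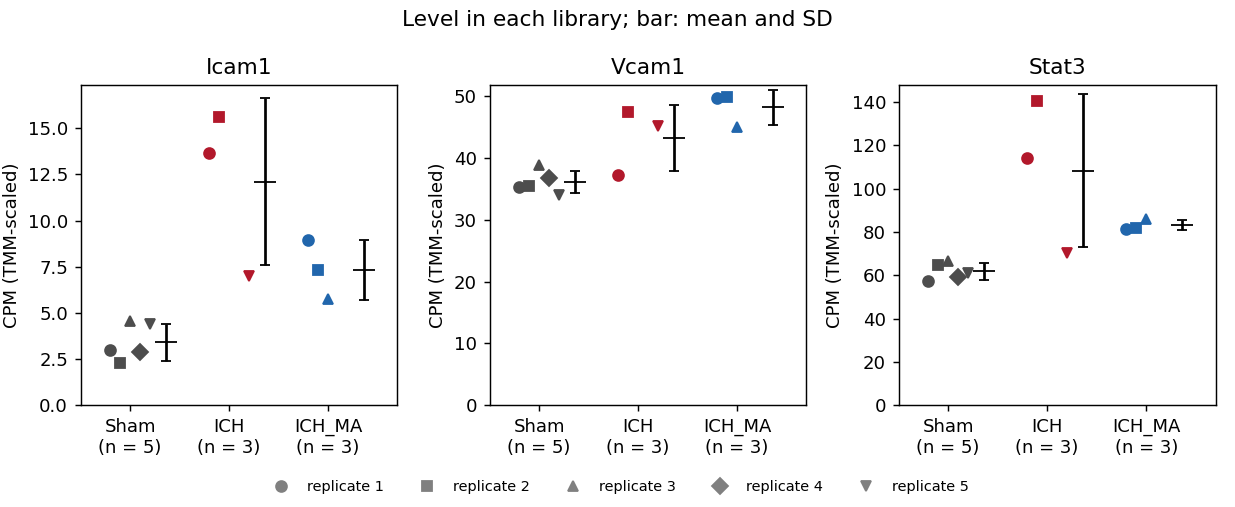
Level of Icam1, Vcam1 and Stat3 in each library, in CPM on a linear axis from 0, by group; each point is 1 library, its shape gives the replicate number, and the bar gives the mean and SD. ICH replicates 1 and 2 stand above all other libraries for Icam1 and Stat3, and the ICH_MA libraries have the highest mean for Vcam1 (48.2 CPM).

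The size of the rise was compared between genes by ratios within each library, which do not depend on how libraries are scaled. On the log2 CPM scale, Icam1 minus Vcam1 averaged −3.44 for Sham (SD 0.42, n = 5) and −1.91 for ICH (SD 0.67, n = 3). The ratio of Icam1 to Vcam1 was thus 2.89-fold higher in ICH, with no overlap between groups (exact two-sided permutation test, p = 0.0357, the smallest that 3 against 5 libraries allow). Icam1 minus Stat3 was −4.21 ± 0.42 in Sham and −3.18 ± 0.14 in ICH, a ratio 2.04-fold higher in ICH, again with no overlap (exact two-sided permutation test, p = 0.0357). Over the 6 ratio tests made, the adjusted p was 0.107 for each, so neither passed after correction. The ratio of Icam1 to Stat3 was chosen after the data were seen.

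**Figure D2:**
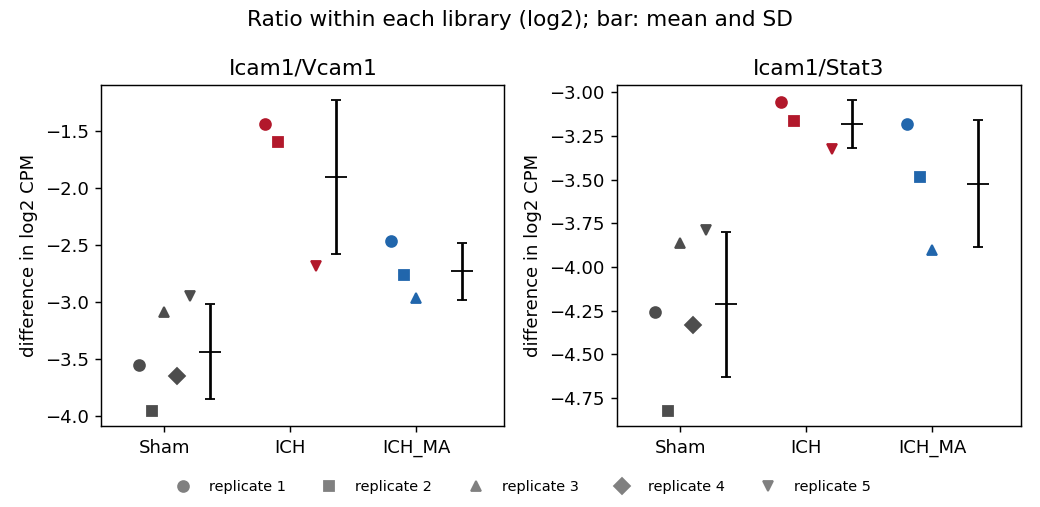
Difference in log2 CPM between Icam1 and Vcam1 and between Icam1 and Stat3 within each library, by group; points are libraries, shapes give the replicate number, and bars give the mean and SD. Both ratios are higher in every ICH library than in every Sham library, and ICH replicate 5 departs from the other ICH libraries for Icam1/Vcam1 (−2.68 against −1.45 and −1.60) more than for Icam1/Stat3.

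Promoter sequences are shown for the adhesion genes because these 2 members share a known regulator, NF-kB, and had the largest and the smallest fold change of the 3 after hemorrhage. They come from RefSeq (build GRCr8), matched by symbol for 3 of 3 members. For Icam1 and Stat3 the start used by this table lies inside the outermost annotated bounds of the gene. The counts were made on another build, mRatBN7.2, and no coordinates were combined. Letters searched on both strands were GGNNNTTCC (NF-kB-like), TTCNNNGAA (STAT-like), GGGCGG (a GC box, the kind of site Sp1 binds) and the basal promoter letters TATAAA. They were chosen after the sequences were seen. Capitals mark matches.
Icam1, chr8:27829595-27829687, plus strand, the part of the window before the outermost annotated start: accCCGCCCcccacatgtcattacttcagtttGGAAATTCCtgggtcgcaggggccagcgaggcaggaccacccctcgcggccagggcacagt
Icam1, chr8:27829727-27829756, plus strand, around the STAT-like match: aggcgcgaggtTTCCGGGAAagtggcccca
Vcam1, chr2:206742784-206742893, minus strand, the bases next to the start: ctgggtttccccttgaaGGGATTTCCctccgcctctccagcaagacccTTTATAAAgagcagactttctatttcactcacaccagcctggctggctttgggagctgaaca

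In the 250 bases before the RefSeq start, Icam1 held 2 NF-kB-like matches, 1 STAT-like match, 2 GC boxes and 1 TATAAA match. The NF-kB-like match shown for Icam1, GGAAATTCC, met the searched letters on both strands, was counted as 1 match, and lay 218 to 210 bases before the start. The STAT-like match TTCCGGGAA lay 107 to 99 bases before it. This match lay inside the outermost annotated bounds of Icam1. So did its other NF-kB-like match, its TATAAA match and the GC box 82 to 77 bases before the start. Vcam1 held 2 NF-kB-like matches, of which GGGATTTCC lay 93 to 85 bases before the start, and a TATAAA match on each strand, the pair overlapping each other. It held 0 STAT-like matches and 0 GC boxes. Stat3 held 1 NF-kB-like match and 0 of the other letters. No match of one motif overlapped a match of another. Of all 33465 promoter windows of this length, 15.4% held NF-kB-like letters, 7.67% STAT-like letters, 30.5% a GC box and 12.9% TATAAA. Because the letters were chosen after the sequences were seen, these shares do not test the matches of the members. GC content was 66% in Icam1, 60.8% in Stat3 and 50.4% in Vcam1, where the median window had 51.2%. A match describes letters only, and binding was not measured.

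The comparison of ICH_MA with ICH addressed what mithramycin A changed after hemorrhage. Icam1 and Stat3 were lower on average under the drug and Vcam1 was higher, and none of these differences passed the threshold. The ICH_MA libraries held 8.97, 7.31 and 5.73 CPM of Icam1 in replicates 1, 2 and 3. All lay below ICH replicates 1 and 2, and ICH replicate 5 fell between ICH_MA replicates 2 and 3, so the groups overlapped. The ICH_MA mean was 7.34 ± 1.62 CPM (SD, n = 3). Its log2 difference from ICH was −0.72 (SE 0.32, 95% interval −1.43 to −0.02, edgeR adjusted p = 0.314). For Stat3 the ICH_MA libraries held 81.6, 82.1 and 86.1 CPM, close together and between ICH replicate 5 and the other ICH libraries. Their mean was 83.3 ± 2.45 CPM (SD, n = 3), and the log2 difference from ICH was −0.38 (SE 0.18, 95% interval −0.78 to 0.02, edgeR adjusted p = 0.347). For Vcam1 the ICH_MA libraries held 49.7, 49.9 and 45.0 CPM. Replicates 1 and 2 exceeded every ICH library, and replicate 3 lay just under ICH replicate 5. The mean was 48.2 ± 2.79 CPM (SD, n = 3), and the log2 difference from ICH was 0.16 (SE 0.09, 95% interval −0.04 to 0.35, edgeR adjusted p = 0.424).

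With edgeR, 0 of 3 members were called between ICH_MA and ICH, as were 0% of all genes tested. At an unadjusted p under 0.05 it was 1 member, Icam1, where 15.5% of all genes passed. DESeq2 called 0 of 3 members where it called 3.16% of genes, and limma-voom called 0 of 3 where it called 0%. The sizes depended on single ICH libraries. Without ICH replicate 2 the log2 difference moved toward 0 for Stat3 (−0.15, edgeR adjusted p = 0.715) and Icam1 (−0.50, edgeR adjusted p = 0.566), and without ICH replicate 1 it did so for Vcam1 (0.06, edgeR adjusted p = 0.86). Leaving out ICH replicate 5 had the opposite effect on Icam1 and Stat3. Without replicate 5 the log2 difference of Stat3 was −0.61 (SE 0.09, edgeR adjusted p = 0.00457), and 5.68% of all genes were then called lower. Icam1 then stood at −0.999 (SE 0.28, edgeR adjusted p = 0.0588). DESeq2 without this library, a setting added after the data were seen, called both lower (adjusted p = 8.89e-07 for Stat3 and 0.0118 for Icam1). There 8.36% of genes were called lower. Only ICH replicates 1 and 2 then remained, and replicate 5 had held the lowest Icam1 and Stat3 of the group. A larger difference without replicate 5 was thus built in for these genes. Vcam1 was at 0.19 on the log2 scale without ICH replicate 5 (edgeR adjusted p = 0.299).

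**Figure D3:**
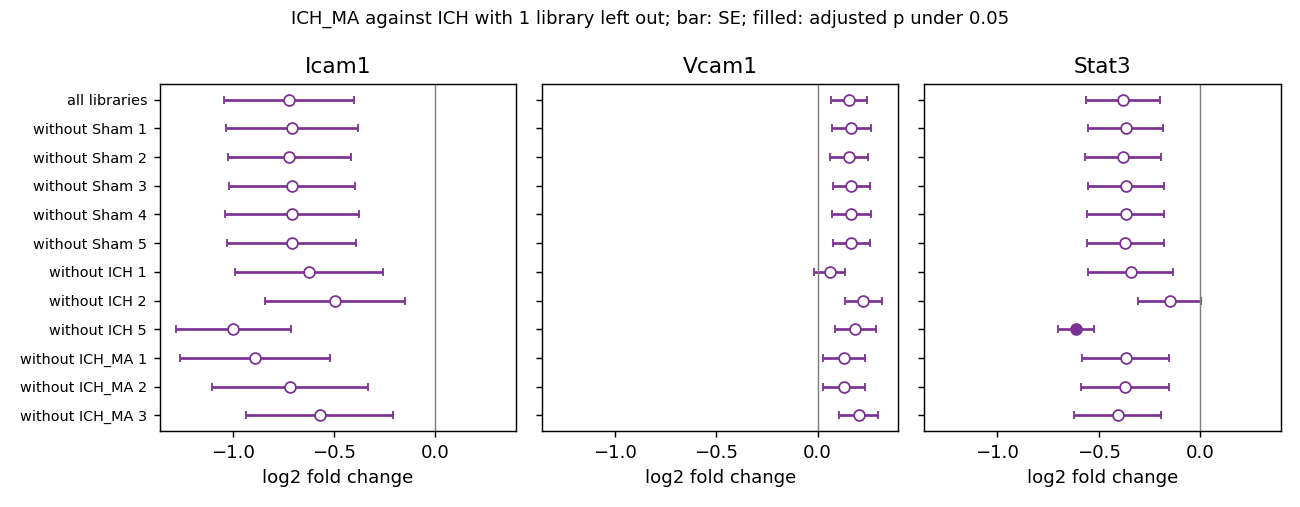
Log2 fold change of ICH_MA against ICH for each gene, with all libraries and with 1 library left out in turn; bars give the SE and filled points an adjusted p under 0.05. Stat3 without ICH replicate 5 (−0.61) is the single filled point, and Icam1 and Stat3 stay below 0 and Vcam1 above 0 in every row.

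The ratios between genes overlapped between ICH_MA and ICH. Icam1 minus Vcam1 was −2.73 ± 0.25 in ICH_MA (SD, n = 3), a ratio 0.565 times that of ICH (p = 0.2 by an exact two-sided permutation test that cannot go below 0.1). Icam1 minus Stat3 was −3.52 ± 0.36 in ICH_MA, a ratio 0.79 times that of ICH (exact two-sided permutation test, p = 0.2). With 3 against 3 libraries neither could have passed, and the adjusted p was 0.2 for both. Against Sham, the ratio in ICH_MA was 1.63-fold higher for Icam1 to Vcam1 (exact two-sided permutation p = 0.0714, adjusted p = 0.143) and 1.61-fold higher for Icam1 to Stat3 (exact permutation p = 0.107, adjusted p = 0.161). The ICH_MA and Sham libraries overlapped in both ratios.

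Against Sham, the treated rats had higher means of all 3 genes. Both comparisons with Sham use the same Sham libraries, so their values share chance. Every ICH_MA library lay above every Sham library for each gene, as was so for 11.8% of all genes tested. Vcam1 had the call with the lowest adjusted p, at 1.34-fold or 0.42 on the log2 scale (SE 0.08, edgeR adjusted p = 0.0118). The call was lost without ICH_MA replicate 1 or 2 (edgeR adjusted p = 0.0509 and 0.0618). Icam1 was 2.15-fold higher, or 1.10 on the log2 scale (SE 0.29, edgeR adjusted p = 0.0428). That call was lost with limma-voom (adjusted p = 0.0904) and in 9 of 11 analyses that left out 1 library: each Sham library, each ICH_MA library and ICH replicate 1, with edgeR adjusted p of 0.0505 to 0.135. Stat3 was 1.35-fold higher, or 0.43 on the log2 scale (SE 0.16), and did not pass (edgeR adjusted p = 0.14). With only Sham and ICH_MA in the model, which leaves the wide ICH spread out of the error, its SE was 0.06 and it passed (edgeR adjusted p = 0.00185), as it did without ICH replicate 5 (adjusted p = 0.00455). With edgeR 2 of 3 members were called higher, where 5% of all genes tested were. Here too the members had been chosen with earlier results known, so the count does not test the selection.

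**Figure D4:**
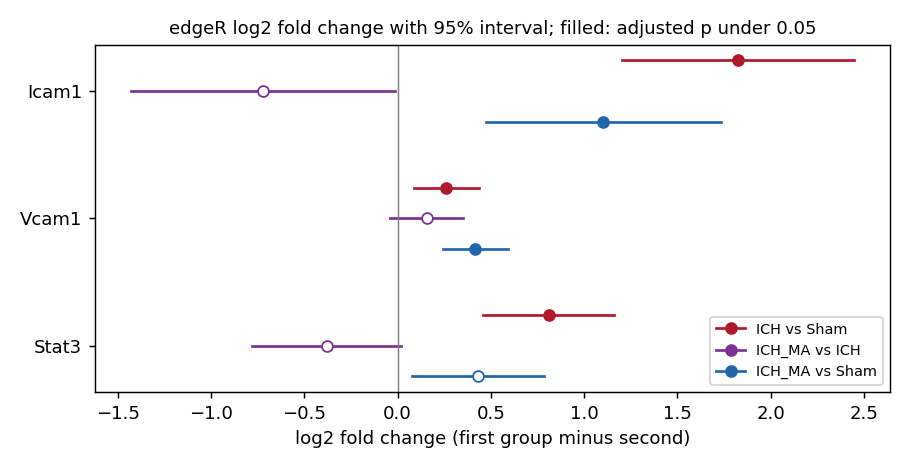
Log2 fold change of each gene in the 3 comparisons, with its 95% interval; filled points passed an adjusted p under 0.05 and open points did not. For Icam1 and Stat3 the estimate against Sham is larger in ICH than in ICH_MA (1.83 against 1.10 and 0.81 against 0.43), and for Vcam1 it is smaller (0.26 against 0.42).

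The order of group means was ICH, ICH_MA, Sham for Icam1 and Stat3, and ICH_MA, ICH, Sham for Vcam1. In each order the 2 hemorrhage groups were neighbours whose difference did not pass the test with all libraries. For Stat3, the difference of ICH_MA from Sham did not pass either (edgeR adjusted p = 0.14). In CPM, the difference of ICH_MA from Sham was 45.1% of that of ICH from Sham for Icam1, 46.1% for Stat3 and 169% for Vcam1. These shares rest on the same Sham libraries in both differences and moved with single ICH libraries. With 1 library left out in turn, they ran from 34.9% (without ICH replicate 5) to 56.6% (without ICH replicate 2) for Icam1, and from 32.8% to 70.5% for Stat3 with the same libraries left out. For Vcam1 they ran from 119% without ICH replicate 1 to 237.2% without ICH replicate 2.

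The spread between libraries also differed by gene. The CV of Icam1 was 29.4% in Sham, 37.3% in ICH and 22.1% in ICH_MA. For Stat3 it was 6.28%, 32.6% and 2.94% in the same order, the widest of them in ICH. For Vcam1 it was 5.05%, 12.3% and 5.79%. The biological CV that edgeR estimated over all groups was 28.2% for Icam1, 16.1% for Stat3 and 8.88% for Vcam1, against a median of 11.2% over all genes.

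Profiles over the 11 libraries were compared by the root mean square difference in log2 CPM, after each gene was centred on its Sham mean. Among 14389 genes with a mean of at least 1 CPM, the nearest to Icam1 was ENSRNOG00000009331, at 0.196 where the median gene lay at 1.18. That gene held 1.54 to 2.47 CPM in Sham, 8.67, 8.34 and 3.71 CPM in ICH replicates 1, 2 and 5, and 5.35, 3.86 and 3.33 CPM in ICH_MA replicates 1, 2 and 3. That gene was picked for nearness over these same libraries, so a likeness to Icam1 was built in by the choice. It shared the low ICH replicate 5 and the order of ICH_MA libraries with Icam1, but not the order of ICH replicates 1 and 2. Its name is not given by the files. Among the members, Stat3 lay at 0.713 from Icam1, with 4.89% of the genes compared nearer to Icam1, and Vcam1 lay at 0.964, with 13.6% nearer. Seen from Stat3, Vcam1 was the nearer member, at 0.357 with 10.9% of genes nearer, and Icam1 lay at 0.713 with 86% nearer. This measure counts the size of a change as well as its shape over libraries.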

How the data were processed

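The authors deposited whole-number counts per Ensembl rat gene, without normalization, for 11 libraries, whose column names are the library names that the labels give each sample. Build mRatBN7.2 and the programs DESeq2 1.4.5, RSEM 1.3.1 and Bowtie2 are named per the submitters' processing notes. No source used here gives their roles, the rounding of RSEM's estimates, the use of strand or any filter, and reads shared between overlapping genes could be divided by the counting.

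Genes were filtered with filterByExpr (minimum count 10, minimum total 15), which kept 14963. One fit of all groups was made by quasi-likelihood in edgeR 4.0.16 (R 4.3.3) after TMM scaling, with Benjamini-Hochberg adjustment over all genes tested. Intervals are 95% intervals from the same test. Log2 CPM used a prior count of 2. Ratios were tested by exact permutation over libraries, and the planned ratio of Socs3 to Stat3 was not computed. The fit was run on counts simulated from its own estimates of mean and spread. That run cannot show how the fit handles libraries that depart from their group. Alternatives used DESeq2 1.42.0, limma-voom 3.58.1, other scalings and filters, fewer groups, a replicate block and each library left out.

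The members and the gene lists were chosen with earlier results of these data known. The 6 pathway lists and 8 marker lists hold symbols and could not be tested. By rule, the members and the gene nearest in profile to Icam1 are named. The model planned for 15 libraries was applied to 11. The labels do not say more of the replicates than their numbers. The edgeR p-values thus set group differences against the spread between these libraries, estimated over all groups. Permutation p-values set them against relabelling of the libraries.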

Additional observations from a re-analysis of the deposited data

How the results depend on the processing

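No result changed direction in any of 236 alternatives, of which 191 kept the same side of the threshold. For the ratios, unlike the genes, that threshold was an unadjusted permutation p under 0.05. Ratio tests could not reach it with a library fewer, nor in ICH_MA against ICH at all. Their labels there were fixed in advance, so the count of 191 does not measure how firm the ratios were. With libraries left out in turn, log2 fold changes of ICH against Sham ran from 1.60 to 2.10 for Icam1, 0.19 to 0.36 for Vcam1 and 0.58 to 1.04 for Stat3. For ICH_MA against ICH they ran from −0.999 to −0.50, 0.06 to 0.23 and −0.61 to −0.15, and for ICH_MA against Sham from 0.93 to 1.25, 0.39 to 0.46 and 0.40 to 0.45, in the same order of genes. The ICH against Sham difference in log2 ratio ran from 1.30 to 1.92 for Icam1/Vcam1 and from 0.88 to 1.14 for Icam1/Stat3, where no exact permutation test with a library fewer can go below p = 0.0571.

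Vcam1 in ICH against Sham lost its call with only the groups compared (0.26, edgeR adjusted p = 0.0543), with the replicate block (0.27, adjusted p = 0.127), and with DESeq2 without ICH replicate 5 (0.22, adjusted p = 0.105), a setting added after the data were seen. Under that setting Icam1 and Stat3 gained a call in ICH_MA against ICH (−0.99 and −0.60), and Stat3 gained one in ICH_MA against Sham (0.43), as it did with only the groups compared (0.43). Icam1 in ICH_MA against Sham lost its call with limma-voom (1.13) and with the replicate block (0.98, adjusted p = 0.319), and Vcam1 there with the replicate block (0.42, adjusted p = 0.125). The cause was not tested.

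Across genes, deviations from group means correlated at −0.156 to 0.0853 in 8 same-numbered pairs of libraries. In 31 differently numbered pairs the range was −0.213 to 0.218. With few libraries per group, this check cannot say whether replicate numbers pair libraries. The block left 1914 calls of 3662 in ICH against Sham and 117 of 998 in ICH_MA against Sham. DESeq2 gave 1823 and only the groups compared 1541 calls in ICH_MA against Sham. With libraries left out in turn, calls over all genes ran from 1992 to 4484 in ICH against Sham and from 348 to 1575 in ICH_MA against Sham, and DESeq2 gave 476 in ICH_MA against ICH. In ICH_MA against Sham, rises were 748 of 998 calls with edgeR and 1128 of 1823 with DESeq2. The Socs3 to Stat3 ratio and alternatives without libraries not analysed here were not run. The CV of Icam1 within groups, 22.1% to 37.3%, exceeded the 8.33% that counting error gave at most.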

Other observations

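Within the ICH group, libraries did not rank alike for the adhesion genes. ICH replicate 1 held Icam1 at 4.004 times and Stat3 at 1.84 times the Sham mean, but Vcam1 at 1.03 times. ICH replicate 5 held Icam1 at 2.05 times and Stat3 at 1.14 times the Sham mean, the lowest of the group, and Vcam1 at 1.25 times. ICH replicate 2 was the highest of the group for all 3 genes, at 4.57, 2.27 and 1.31 times for Icam1, Stat3 and Vcam1. In ICH_MA, Icam1 was highest in replicate 1 (2.63 times the Sham mean) and lowest in replicate 3 (1.68 times), whereas Stat3 was highest in replicate 3 (1.39 times). With 3 libraries in a group these orders were not tested.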
